A study of Mus musculus with 6 samples.

Results

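The genes described here encode receptors for glycated proteins and enzymes that clear reactive dicarbonyls or act on glycated residues. The 10 genes were chosen by name, as the rows of the deposited table whose symbol was Ager, Ddost, Lgals3, Glo1, Hagh, Park7, Akr1b8, Aldh2, Fn3k or Fn3krp. All 10 symbols were found, each on a single row, among 22183 genes. RNA sequencing of peritoneal ECs from 3 saline mice and 3 PD mice gave their levels. All were young adult wild-type male C57BL/6J mice and received daily intraperitoneal injections for 6 weeks, of glucose-based Dianeal PD fluid in PD mice and of saline in sham mice. The sample labels give magnetic sorting of CD31+ cells, whereas the supplementary methods give fluorescence-activated sorting of CD31+ CD45- cells from the digested mesentery. The comparison asked how each gene differed after 6 weeks of PD fluid, and the 3 mice of each group were taken as separate replicates.

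By way of background, glucose and the triose phosphates of glycolysis give rise to methylglyoxal and other dicarbonyls, which react with proteins to form advanced glycation end products (AGEs). Methylglyoxal is cleared by the glyoxalase system, in which GLO1 turns its adduct with glutathione into S-lactoylglutathione and HAGH (glyoxalase II) releases D-lactate. Aldo-keto reductases and aldehyde dehydrogenases remove further reactive carbonyls, and fructosamine kinases act on early glycation products already bound to proteins. RAGE, encoded by Ager, passes AGE signals into the cell, while OST48 (Ddost) and galectin-3 (Lgals3) also bind AGEs. Glucose-based PD fluids are a known source of both glucose and its reactive degradation products in the peritoneum.

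Each mouse contributed 21973426 to 26374292 counted reads. Levels between mice are given as CPM, read counts divided by the library size after TMM scaling, and levels between genes as FPKM, which accounts for length. The sorted cells carried endothelial transcripts together with those of other cells. Of 12 endothelial markers, 11 were higher in PD mice, and the summed level of the 12 was 1180 to 1194 CPM in saline mice and 1869 to 1969 CPM in PD mice. The exception was Pecam1, which encodes the sorted antigen CD31, with a log2 fold change of 0.13 (edgeR p of 0.0704 after adjustment). Ptprc, which encodes the leukocyte antigen CD45, was at 601 to 658 FPKM in saline mice and 388 to 401 FPKM in PD mice, above Pecam1 (CD31) at 142 to 150 and 155 to 164 FPKM. All 8 B cell markers were lower in PD mice, whereas all 12 macrophage, 9 mesothelial, 8 fibroblast and 18 pancreatic acinar markers were higher. The acinar list shifted most, from a summed level of 4.02 to 7.47 CPM in saline mice to 8960 to 10020 CPM in PD mice. The part of all these cell types in the results below was not tested, and fewer cells of a type cannot be told apart from less RNA per cell.

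**Figure D1:**
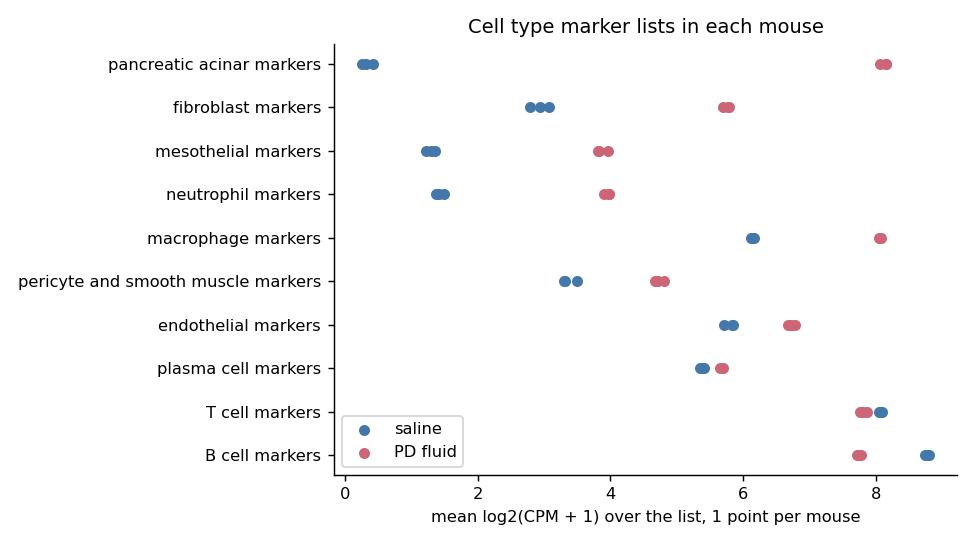
Mean log2(CPM + 1) of each cell type marker list (x axis) with 1 point per mouse, saline in blue and PD fluid in red. The macrophage list sits at 6.11 to 6.16 in saline mice and 8.04 to 8.07 in PD mice, and the B cell list at 8.74 to 8.79 and 7.70 to 7.77.

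Levels per length spanned a wide range. In saline mice, Park7 was highest at 251 FPKM, followed by Ddost at 98.2, Glo1 at 72.8, Aldh2 at 71.3, Lgals3 at 61.3 and Hagh at 20.1 FPKM. Akr1b8 at 1.14, Fn3krp at 0.856, Ager at 0.351 and Fn3k at 0.0777 FPKM formed a low group. The ranges of Glo1 and Aldh2 overlapped, as did those of Fn3krp and Ager. Park7 lay above 98.3% of the 16700 genes with an FPKM over 0 in saline mice, Ager above 24.2% and Fn3k above 13.7%. In PD mice, Lgals3 came first at 197 FPKM, with a range that overlapped that of Park7 at 192 FPKM. Ddost at 102 and Aldh2 at 89.4 FPKM also overlapped, whereas Glo1 moved to the fifth place at 57.3 FPKM.

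**Figure D2:**
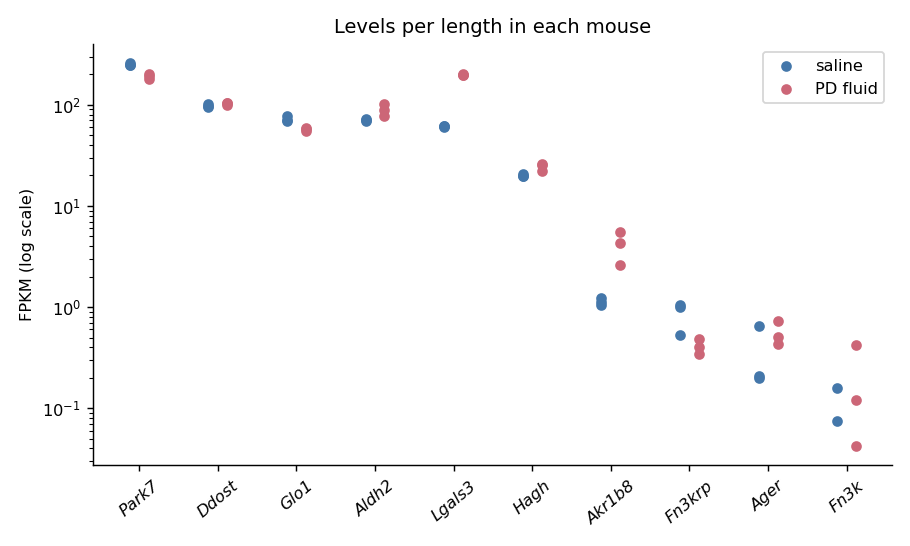
FPKM of the 10 genes on a log axis, 1 point per mouse, ordered by their mean in saline mice. Lgals3 is the gene that changes place most, from the fifth in saline mice at 61.3 FPKM to the first in PD mice at 197 FPKM, and the value of 0 for Fn3k in 1 saline mouse is not drawn.

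Of the 10 genes, 9 had enough reads to be tested. With TMM scaling, 4 were higher in PD mice (Akr1b8, Lgals3, Aldh2 and Hagh) and 3 were lower (Fn3krp, Park7 and Glo1) at a Benjamini-Hochberg threshold of 0.05 over all genes (quasi-likelihood test of edgeR), although Aldh2 and Hagh changed sign when the libraries were scaled to endothelial markers. The background was high, since 58.9% of the 14005 tested genes passed, 31.1% as higher and 27.8% as lower. The median log2 fold change was 0.31 over the 9 genes and 0.017 over all tested genes, and the median absolute value was 0.392 against 0.400. In the same 7 genes, the PD mice did not overlap with the saline mice, which was also the case for 65.6% of all tested genes, 34.0% with PD mice above and 31.6% with PD mice below.

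**Figure D3:**
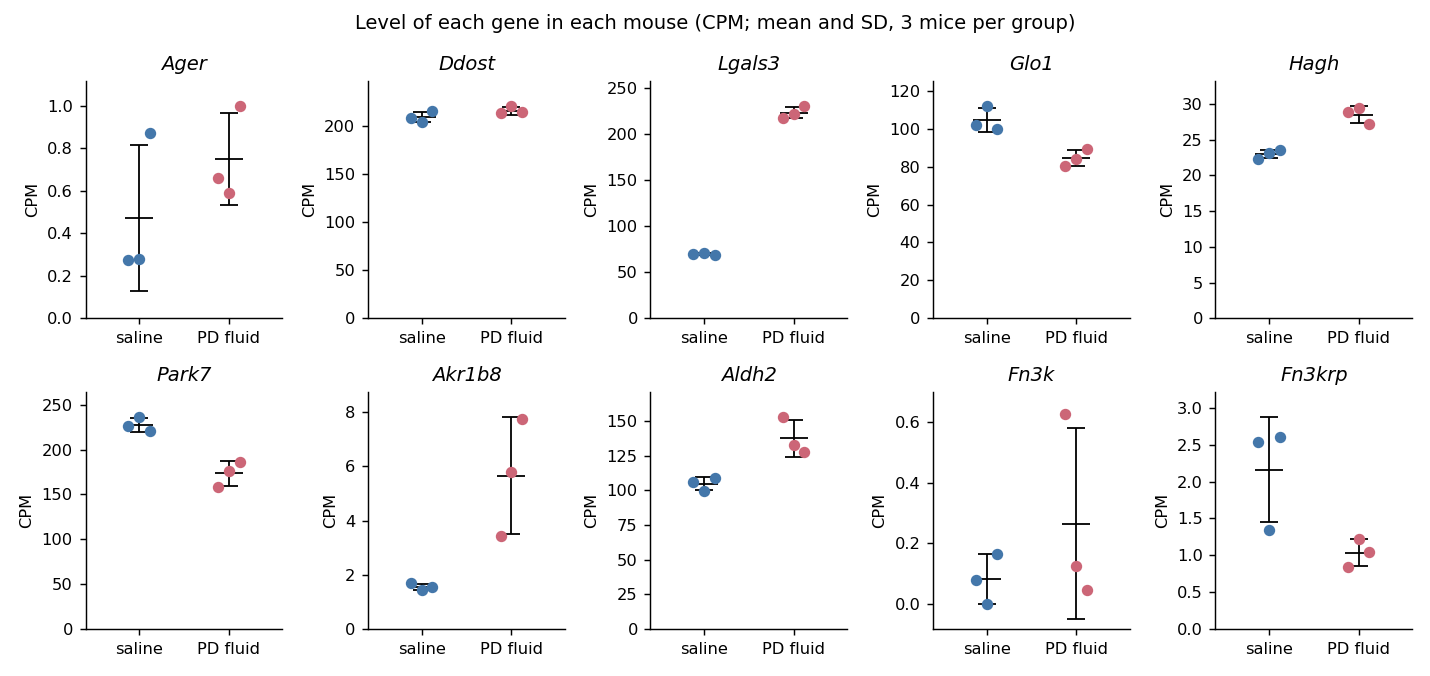
CPM of each gene in each mouse with mean and SD (n = 3 mice per group), each panel on its own linear axis. The groups are apart in 7 genes and overlap in Ager, Ddost and Fn3k, and in Akr1b8 the PD mice run from 3.42 to 7.75 CPM.

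The receptors differed in direction and size. Lgals3 (ENSMUSG00000050335, chromosome 14 of GRCm38, 47367751 to 47386160, protein coding) encodes galectin-3, a secreted and intracellular lectin that binds AGEs and is abundant in macrophages. It was at 69.4, 71.1 and 68.7 CPM in the saline mice and at 218, 222 and 230 CPM in the PD mice. Every PD mouse was thus above every saline mouse, and the spread within each group was small. The log2 fold change was 1.68 (standard error 0.06, edgeR p of 3.1e-09 after adjustment), or 3.20-fold. It was 0.99 with scaling to the endothelial markers (edgeR p of 9.51e-08 after adjustment), so it was higher under either scaling. The 12 macrophage markers, all higher in PD mice, had a summed level of 2670 to 2817 CPM in saline mice and 11030 to 11950 CPM in PD mice, and their part in the rise of Lgals3 was not tested.

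Ager (ENSMUSG00000015452, chromosome 17, 34597862 to 34600936) encodes RAGE, the signalling receptor for AGEs, S100 proteins and HMGB1. Its reads numbered 7, 6 and 21 in the saline mice and 18, 14 and 22 in the PD mice. This gave 0.273, 0.277 and 0.870 CPM in saline mice and 0.662, 0.587 and 0.997 CPM in PD mice, so that the groups overlapped through a single high saline mouse. The log2 fold change of 0.64 (standard error 0.52, edgeR p of 0.309 after adjustment) had a 95% interval from -0.51 to 1.79, and at this depth no difference could be detected. Without saline mouse 3, the value was 1.42 with an adjusted p of 0.0515 in the same edgeR test, and without saline mouse 1 it was 0.36.

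Ddost (ENSMUSG00000028757, chromosome 4, 138304730 to 138312628) encodes OST48, a subunit of the oligosaccharyltransferase that attaches N-glycans in the endoplasmic reticulum, and also known as an AGE receptor. It was at 208, 204 and 215 CPM in saline mice and 213, 220 and 214 CPM in PD mice, and the groups overlapped. This amounted to a log2 fold change of 0.04 (standard error 0.06, edgeR p of 0.520 after adjustment). Its 95% interval, from -0.08 to 0.17, bounds the difference with TMM scaling.

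Both steps of the glyoxalase system had at least 501 reads in every mouse, and they moved in opposite directions with TMM scaling. Both changes were small for this series, since 60.9% of all tested genes had a larger absolute change than Glo1 and 60.3% than Hagh. Glo1 (ENSMUSG00000024026, chromosome 17, 30584936 to 30626871), the enzyme of the first step, was at 102, 112 and 99.9 CPM in saline mice and 80.6, 84.1 and 89.3 CPM in PD mice. All PD mice lay below all saline mice. On the log2 scale, PD minus saline was -0.30 (standard error 0.07, edgeR p of 0.00419 after adjustment), and it was lower with endothelial scaling as well, at -0.99. Its transcript shares 99.7% of its bases with that of Gm13443 over 388 bases, and 418 of its exonic bases overlap AC165962.3 on the opposite strand, so part of its reads may not be unique to it. Gm13443 and AC165962.3 were not analysed here.

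Hagh (ENSMUSG00000024158, chromosome 17, 24840143 to 24864450), the enzyme of the second step, was at 22.3, 23.1 and 23.6 CPM in saline mice and 28.9, 29.4 and 27.2 CPM in PD mice. These groups did not overlap either. The log2 fold change was 0.31 (standard error 0.09, edgeR p of 0.0109 after adjustment) with TMM scaling and -0.38 with endothelial scaling. Within each mouse, the ratio of Hagh to Glo1 in FPKM does not depend on that scaling. The ratio was 0.28, 0.255 and 0.295 in saline mice and 0.476, 0.437 and 0.374 in PD mice, with means of 0.277 ± 0.0203 and 0.429 ± 0.0513 (SD, n = 3 mice each). A two-sided exact permutation test gave p = 0.1, which is as low as 3 mice against 3 can reach. Since the groups were already apart in each gene, in opposite directions, the ratios had to be apart too. This p-value therefore adds nothing to the values of the genes.

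Park7 (ENSMUSG00000028964, chromosome 4, 150897133 to 150914437) encodes DJ-1, an oxidative stress protein for which a glyoxalase or deglycase activity has been described. It was at 226, 236 and 221 CPM in saline mice and 159, 176 and 187 CPM in PD mice, and the groups were apart. This amounted to a log2 fold change of -0.39 (standard error 0.07, edgeR p of 0.000753 after adjustment). Since 50.9% of all tested genes had a larger absolute change, its size was near the middle of the series, and it was -1.08 with endothelial scaling.

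The carbonyl-clearing enzymes Akr1b8 and Aldh2 were higher with TMM scaling. Akr1b8 (ENSMUSG00000029762, chromosome 6, 34354119 to 34368463) encodes an aldo-keto reductase of the aldose reductase family, and it had the largest log2 fold change of the 9 tested genes in the fit of all 6 mice. Without PD mouse 3, its value of 1.57 was below that of Lgals3 at 1.66, and its interval holds the Lgals3 value. Its reads numbered 43, 31 and 37 in saline mice and 93, 138 and 171 in PD mice, or 1.68, 1.43 and 1.53 CPM against 3.42, 5.79 and 7.75 CPM. Every PD mouse was above every saline mouse, but the PD mice differed among themselves far more than the saline mice did, with an SD of 2.17 CPM against 0.126 CPM. On the log2 scale, PD minus saline was 1.86 (standard error 0.30, edgeR p of 0.00035 after adjustment), or 3.62-fold with a wide 95% interval of 1.20 to 2.51 on the log2 scale. It stayed higher with endothelial scaling, at 1.18 (edgeR p of 0.00289 after adjustment). The transcript shares 86.3% of its bases with that of Akr1b7 over an alignment of 930 bases, and Akr1b7 had 23 reads over all 6 mice. It also aligns to Gm5649 (86.4% over 951 bases) and Gm15806 (83.8% over 906), which were not analysed here.

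Among 9385 tested genes with a mean of at least 10 CPM, the 3 whose log2(CPM + 1) followed Akr1b8 most closely over the 6 mice were Ptges3 (Pearson r = 0.998), Gna15 (0.998) and Sncg (0.997). These points share libraries and a group difference, and the values are a description only. Ptges3, a co-chaperone and prostaglandin synthase, ran from 83.1 to 83.6 CPM in saline mice and from 94.6 to 109 CPM in PD mice, a far smaller change than that of Akr1b8.

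Aldh2 (ENSMUSG00000029455, chromosome 5, 121566027 to 121593824), the mitochondrial aldehyde dehydrogenase, was at 106, 99.8 and 109 CPM in saline mice and 153, 133 and 128 CPM in PD mice. The groups did not overlap, and the mouse with the highest Aldh2 was the PD mouse with the lowest Akr1b8. The log2 fold change was 0.39 (standard error 0.08, edgeR p of 0.00155 after adjustment), and it was -0.30 with endothelial scaling (edgeR p of 0.00401 after adjustment).

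The fructosamine kinases lie next to each other on chromosome 11, 3624 bases apart on the same strand, and both were scarce. Fn3krp (ENSMUSG00000039253, 121421401 to 121431288) encodes the kinase that acts on ribulosamines and psicosamines. It had 65, 29 and 63 reads in saline mice and 23, 29 and 23 in PD mice. In CPM, these were 2.54, 1.34 and 2.61 against 0.846, 1.22 and 1.04, so that the groups were apart by a narrow margin set by saline mouse 2. This amounted to a log2 fold change of -1.07 (standard error 0.34, edgeR p of 0.0182 after adjustment). The call did not hold without saline mouse 1 (edgeR p of 0.0732 after adjustment), saline mouse 3 (0.0664) or PD mouse 1 (0.0666), although the direction did. With endothelial scaling, the value was -1.76. Stretches of its transcript align to Ppp1r7 (87.5% alike over 256 bases), Aqp7 (84.1% over 251) and Colec12 (87.4% over 247), which had 12986, 13784 and 3542 reads over the 6 mice, so the few reads of Fn3krp may not all be unique to it.

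Fn3k (ENSMUSG00000025175, 121434913 to 121450491), which phosphorylates fructosamines so that the sugar is released, had 2, 0 and 4 reads in saline mice and 17, 3 and 1 in PD mice. It failed the filter on low counts and was not tested. A count of 0 in saline mouse 2 allows a level of up to 0.137 CPM, counting error only. Without the filter, its log2 fold change was 1.67 with an edgeR p of 0.233 after adjustment, which rests on the 17 reads of PD mouse 1.

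**Figure D4:**
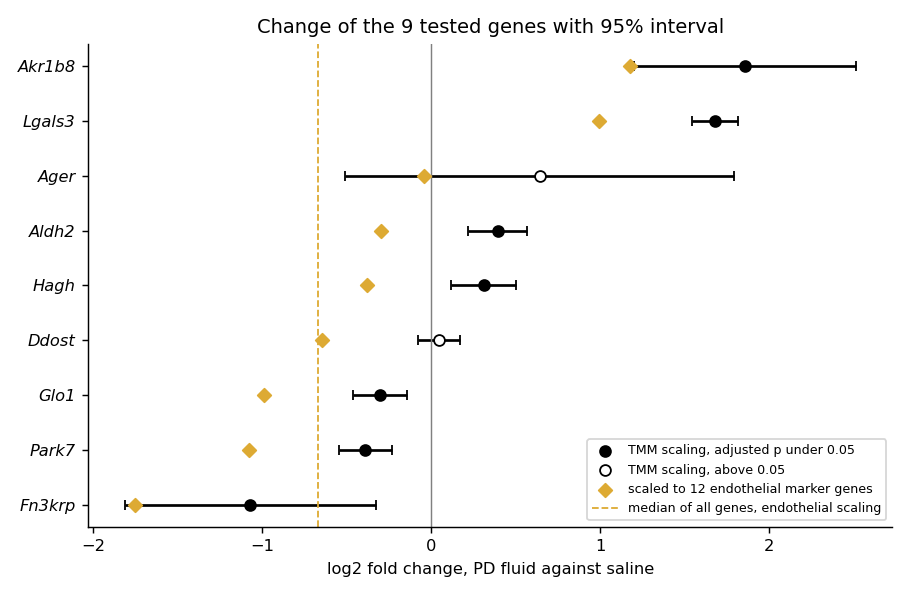
Log2 fold change of the 9 tested genes (x axis) with TMM scaling and its 95% interval (circles and bars), and after scaling to 12 endothelial marker genes (diamonds), with the median of all genes under the latter as a dashed line at -0.671. Lgals3 and Akr1b8 lie to the right of 0 under both scalings, Glo1, Park7 and Fn3krp to the left, and Ager, Aldh2, Hagh and Ddost change sides.

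The endothelial scaling moved the whole series, with a median log2 fold change of -0.671 over all tested genes. Under it, 76.0% of genes were called, 12.2% as higher and 63.7% as lower, and of the genes called, 16.1% were higher as against 52.9% with TMM. Since scaling shifts all genes by about the same amount, the values relative to that median are near those with TMM by construction, with Akr1b8 at 1.85, Lgals3 at 1.66, Aldh2 at 0.37, Hagh at 0.29, Glo1 at -0.32, Park7 at -0.41 and Fn3krp at -1.09. Ddost, called lower under this scaling at -0.64, was at 0.03 relative to the median.

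The promoters of the genes that rose most and of Glo1 and Park7, which fell, are shown for comparison, as the 250 bases before each RefSeq start on GRCm38.p6, 5′ to 3′ on the strand of the gene, with GC boxes (GGGCGG on either strand) in capitals. They span chr6:34353896-34354145 (plus strand), chr14:47373610-47373859 (plus), chr17:30612660-30612909 (minus) and chr4:150909922-150910171 (minus). The windows of Lgals3, Glo1 and Park7 lie inside the gene spans given above, so starts annotated further upstream are not covered. The window of Fn3krp, which fell more than Glo1 and Park7, is not shown.
Akr1b8: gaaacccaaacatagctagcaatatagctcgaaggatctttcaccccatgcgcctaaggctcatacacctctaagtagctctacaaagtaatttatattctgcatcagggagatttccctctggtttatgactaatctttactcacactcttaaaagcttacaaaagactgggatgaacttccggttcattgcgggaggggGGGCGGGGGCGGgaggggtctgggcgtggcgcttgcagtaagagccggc
Lgals3: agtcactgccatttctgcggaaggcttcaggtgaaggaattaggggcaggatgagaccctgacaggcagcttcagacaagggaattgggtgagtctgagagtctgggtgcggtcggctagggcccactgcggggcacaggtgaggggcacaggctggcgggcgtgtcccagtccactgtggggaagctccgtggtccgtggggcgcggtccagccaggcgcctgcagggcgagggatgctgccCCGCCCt
Glo1: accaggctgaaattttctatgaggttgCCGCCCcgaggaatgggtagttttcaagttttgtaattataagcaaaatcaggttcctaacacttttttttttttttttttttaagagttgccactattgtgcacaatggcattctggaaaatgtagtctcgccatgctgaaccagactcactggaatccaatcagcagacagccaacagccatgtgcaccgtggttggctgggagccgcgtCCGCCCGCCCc
Park7: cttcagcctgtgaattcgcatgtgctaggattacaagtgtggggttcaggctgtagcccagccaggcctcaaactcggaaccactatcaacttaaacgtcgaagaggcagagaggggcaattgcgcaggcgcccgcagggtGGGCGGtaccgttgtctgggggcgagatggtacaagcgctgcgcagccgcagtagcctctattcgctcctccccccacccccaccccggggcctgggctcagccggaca

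The reference promoters comprised 8 of the 10 genes. The core of the antioxidant response element, through which NRF2 acts on many detoxification genes, was searched as TGACNNNGC on both strands. It was in no window of these 8 genes and in 10.2% of 32851 promoters of the same length. Starts outside these windows were not searched. The AP-1 site TGANTCA, in 6.75% of promoters, was also in none of these windows. GC boxes were in 32.7% of promoters. Akr1b8 had them 49 and 43 bases before its start, where the matches follow directly on each other, Glo1 had 3, of which the last pair overlap, and Lgals3 and Park7 had 1 each. These are matches of letters, from which nothing follows about the binding of a factor.

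The other genes of these pathways were followed in 8 lists with 80 genes, of which 71 were tested. In PD mice, 31 of these were higher and 12 lower in the same edgeR test, or 60.6% called as against 58.9% of all genes. Endothelial scaling gave 16 higher and 41 lower, while 12.2% of all tested genes were higher and 63.7% lower under it. The counts per list with endothelial scaling below stand beside these same shares. Those with TMM scaling stand beside 31.1% of all tested genes higher and 27.8% lower. For each list, the 2 called genes with the largest change are given with values, and further genes are named where 5 or fewer moved in a direction, chosen after their values were seen.

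Among 7 other AGE-binding and scavenger receptors, 6 were higher and none lower, with a median log2 fold change of 1.47. The share called was 85.7%, against 58.9% of all tested genes, of which 31.1% were higher. With endothelial scaling, 4 were higher and 2, Prkcsh and Cd36, were lower. Olr1, which encodes the oxidized LDL receptor LOX-1, was at 0.703, 0.369 and 0.414 CPM in saline mice and 4.78, 4.36 and 4.58 CPM in PD mice (log2 fold change 3.18, standard error 0.29). Stab1, a scavenger receptor of sinusoidal ECs and macrophages, rose to 55.5 ± 5.40 CPM in PD mice, from 9.49 ± 0.927 CPM in saline mice (SD, n = 3 each), a log2 fold change of 2.55. Ager and Ddost were not called, and whether they differed from these receptors was not tested. The macrophage markers given above were higher in the same mice, and their part was not tested.

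For RAGE ligands and partners, 6 of 10 genes were higher and 1, Hmgb1, was lower, with 4 higher and 4 lower under endothelial scaling. With TMM scaling, 70.0% were called, against 58.9% of all tested genes. S100a8 and S100a9, the subunits of calprotectin, are abundant in neutrophils. S100a8 was at 1.56, 1.61 and 1.08 CPM in saline mice and 84.0, 79.4 and 85.5 CPM in PD mice, and its log2 fold change of 5.87 (standard error 0.13) was the largest of all 8 lists. S100a9 rose to 40.5 ± 1.24 CPM in PD mice, from 1.01 ± 0.193 CPM in saline mice (SD, n = 3 each), with a log2 fold change of 5.32. Both belong to the list of 8 neutrophil markers. Of the other 6, 5 were tested and 4 were higher, and Ly6g was at 3 reads or fewer in every saline mouse. Without S100a8 and S100a9, the summed level of the list was 16.7 to 18.5 CPM in saline mice and 93.7 to 108 CPM in PD mice, and the part of neutrophils was not tested. Hmgb1, a nuclear protein that signals through RAGE when released, fell by 0.52 on the log2 scale.

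Of 11 other subunits of the oligosaccharyltransferase, 5 were lower (Tmem258, Ostc, Ost4, Dad1 and Stt3b) and 1 higher (Rpn1). The share called, 54.5%, was close to the 58.9% of all tested genes. The median log2 fold change was -0.142, and all 11 subunits were lower with endothelial scaling. Tmem258 was at 47.1, 44.2 and 38.4 CPM in saline mice and 31.6, 30.9 and 32.1 CPM in PD mice (log2 fold change -0.46, standard error 0.09), and Ostc had a log2 fold change of -0.33. The call of Stt3b was lost without any 1 of 4 mice (edgeR adjusted p from 0.0527 to 0.0755), and that of Ost4 without saline mouse 1 (0.0585). Secretory cells such as acinar and plasma cells make much N-glycosylated protein, and 18 of 18 acinar and 5 of 8 plasma cell markers were higher in PD mice, with 2 plasma cell markers lower. Their part in these values was not tested.

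The other tested galectins and the galectin-3 ligand had log2 fold changes between -0.28 and 1.02. Of 8 genes in the list, 5 were tested, 2 were higher (Lgals3bp and Lgals1) and 1 was lower (Lgals8). The share called, 60.0%, was close to the 58.9% of all tested genes. Endothelial scaling gave 1 higher and 3 lower. Lgals3bp, a secreted ligand of galectin-3, rose to 262 ± 7.96 CPM in PD mice, from 129.5 ± 2.60 CPM in saline mice (SD, n = 3 each), a log2 fold change of 1.02. Lgals1 was higher by 0.75 on the log2 scale (standard error 0.08). Lgals9, at 193 FPKM in saline mice the most abundant galectin of the list, had a log2 fold change of 0.03 (edgeR p of 0.605 after adjustment). In PD mice, Lgals3 reached 195 to 200 FPKM and Lgals9 was at 194 to 204 FPKM, so that their ranges overlapped.

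In the list of glyoxalase relatives, 8 of 9 genes were tested, 3 were lower and none higher. The share called was 37.5%, against 58.9% of all tested genes, of which 27.8% were lower. The median of the list was -0.036, and 7 of its genes were lower with endothelial scaling. Haghl, a relative of Hagh, was at 20.3, 20.5 and 22.4 CPM in saline mice and 14.6, 13.0 and 14.0 CPM in PD mice. Its log2 fold change of -0.60 (standard error 0.11) was opposite in sign to that of Hagh with TMM scaling. Gatd1, which carries a glutamine amidotransferase-like domain of the same superfamily as DJ-1, had one of -0.46, and Glod4 had one of -0.38. Ldhd, the D-lactate dehydrogenase that uses the product of the pathway, was at 1.43 and 1.65 CPM with a log2 fold change of 0.20 (standard error 0.31).

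The list of aldo-keto and carbonyl reductases, which also holds the sorbitol dehydrogenase Sord, had 10 genes, of which 9 were tested. In PD mice, 4 were higher (Cbr2, Cbr3, Sord and Akr1a1) and 1, the aldose reductase Akr1b3, was lower, whereas endothelial scaling gave 3 higher and 6 lower. The share called, 55.6%, was close to the 58.9% of all genes. Cbr2 was at 31.5, 32.8 and 29.4 CPM in saline mice and 115, 126 and 131 CPM in PD mice (log2 fold change 1.99, standard error 0.08), and Cbr3 had a log2 fold change of 1.54. The closest relatives of Akr1b8 in the list were lower, not called or not tested. Akr1b3 had a log2 fold change of -0.24 and Akr1b10 one of -0.13 (edgeR p of 0.446 after adjustment), and Akr1b7 was too low to test.

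Of 18 other aldehyde dehydrogenases, 14 were tested and 8 were higher, none lower, with a median of 0.52, and 3 were higher and 5 lower with endothelial scaling. The share called was 57.1%, close to the 58.9% of all tested genes, of which 31.1% were higher and 27.8% lower. The retinaldehyde dehydrogenases Aldh1a3 and Aldh1a2 changed most. Aldh1a3 was at 0.859, 0.738 and 1.24 CPM in saline mice and 4.53, 6.46 and 3.53 CPM in PD mice (log2 fold change 2.34, standard error 0.31). Aldh1a2, known in mesothelium, rose to 9.26 ± 1.58 CPM in PD mice, from 2.15 ± 0.372 CPM in saline mice (SD, n = 3 each), a log2 fold change of 2.10. The 9 mesothelial markers, all higher, had a summed level of 15.6 to 19.2 CPM in saline mice and 164 to 190 CPM in PD mice, and their part was not tested. The calls of Aldh4a1 and Aldh5a1 were lost without any 1 of 3 mice (edgeR adjusted p from 0.106 to 0.155) and any 1 of 4 mice (0.0531 to 0.124), respectively.

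The last list covers the synthesis and recycling of glutathione, which the glyoxalase system needs, and holds transporter genes (Slc7a11 and Slc3a2) beside enzymes. Of 7 genes, 4 were higher (Slc7a11, Gsr, Slc3a2 and Gclm) and 1, Ggct, was lower, with 1 higher and 3 lower under endothelial scaling. With TMM scaling, 71.4% were called, against 58.9% of all tested genes. Gclc and Gss were not called, with log2 fold changes of 0.08 and -0.11. Slc7a11, the cystine transporter, was at 1.48, 0.738 and 0.911 CPM in saline mice and 4.82, 4.74 and 6.30 CPM in PD mice (log2 fold change 2.32, standard error 0.28). Gsr, the glutathione reductase, rose to 85.3 ± 1.999 CPM in PD mice, from 54.1 ± 2.03 CPM in saline mice (SD, n = 3 each), a log2 fold change of 0.66, and was at -0.03 with endothelial scaling.

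**Figure D5:**
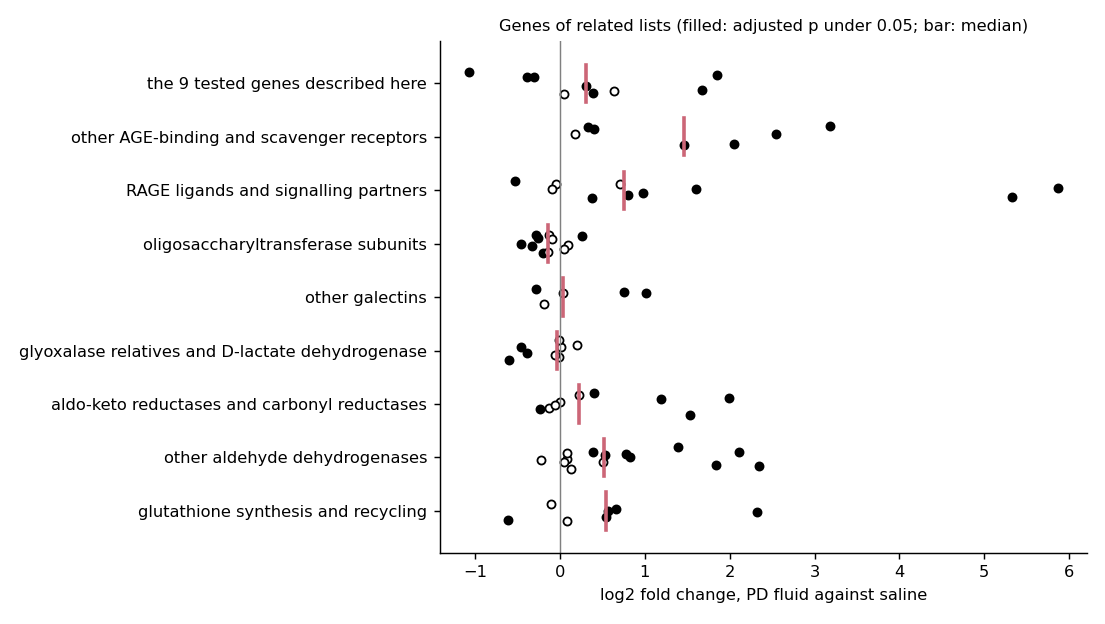
Log2 fold change (x axis, TMM scaling) of each tested gene in the 8 related lists and of the 9 tested genes described here, filled where the adjusted p was under 0.05, with the median of each list as a red bar. The scavenger receptors have the highest median, 1.47, and the glyoxalase relatives and oligosaccharyltransferase subunits the lowest, -0.036 and -0.142, and with endothelial scaling the medians of all lists but the scavenger receptors (0.774) and RAGE ligands (0.07) are below 0.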

How the data were processed

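RNA was sequenced from peritoneal ECs of 3 saline and 3 PD mice. The authors deposited read counts per gene, as whole numbers without normalization, and FPKM values, for each mouse. The processing notes of the submitters name fastp 0.18.0, Bowtie2 2.2.8, HISAT2, StringTie and RSEM, and the genome build is not given in the sources used here. The deposited table also holds the authors' group means, a log2 ratio, a p-value and an FDR, none of which was used.

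Counts were filtered with filterByExpr (14005 genes kept), scaled by TMM and tested with the quasi-likelihood test of edgeR 4.0.16 (R 4.3.3), comparing PD mice with saline mice without covariates, at a Benjamini-Hochberg threshold of 0.05. Since the study names limma, limma-voom (limma 3.58.1) was an alternative, as were DESeq2 1.42.0, no filter, upper-quartile scaling, scaling to 12 endothelial markers, removal of 285 acinar and immunoglobulin genes, a replicate block and leaving out each mouse. Standard errors and intervals derive from the quasi-likelihood statistic. FPKM values served to compare genes, including Ptprc with Pecam1, and for the ratio of Hagh to Glo1, which was compared between the groups. Marker lists were scored as mean log2(CPM + 1), with two-sided exact permutation tests. In all 10 lists, the groups did not overlap (exact permutation p = 0.1, the smallest possible, also after adjustment over the 10 lists). The tests were run on simulated counts first. Positions are from GENCODE M21 (GRCm38), matched by Ensembl identifier for 22128 genes, and promoters from RefSeq (GRCm38.p6).

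The 10 genes and the lists were chosen with earlier results of these data known. The 2 called genes with the largest change were named from each list, and the 3 genes most like the called gene with the largest change. Between 21973426 and 26374292 reads per mouse set the precision, and the replicates are libraries that the labels name as separate mice. No 2 libraries of a group agreed within sampling noise (chi-square per degree of freedom of at least 6.27).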

Additional observations from a re-analysis of the deposited data

How the results depend on the processing

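Of 117 alternative values of the 9 tested genes, 110 kept their direction and side of the threshold, 3 lost the call and 4 changed sign. The sign changes all came from scaling to the 12 endothelial markers, which gave log2 fold changes of -0.041 for Ager, -0.38 for Hagh, -0.64 for Ddost and -0.30 for Aldh2. That scaling, by construction, divides by the summed level of 12 genes, of which 11 were higher in PD mice. Under it, 2 of the genes were higher and 6 lower, against 4 and 3, and over all genes 1710 were higher and 8927 lower, against 4359 and 3887. In the related lists, 16 were higher and 41 lower, against 31 and 12. The 3 lost calls were those of Fn3krp, at -0.93, -0.92 and -0.94 without saline mouse 1, saline mouse 3 and PD mouse 1. With each mouse left out in turn, 4 genes stayed higher and between 2 and 3 lower. Counts limit Ager, Fn3k and Fn3krp, at 65 reads or fewer per mouse, and the saline level of Akr1b8, at 31 to 43 reads.

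Same-numbered mice of the 2 groups did not deviate together over genes more than other pairs did. Their Pearson r ran from -0.17 to 0.10, against -0.27 to 0.23 for differently numbered mice. With 3 mice per group, this check cannot decide whether the numbers pair the mice, and the main test used no pairing. With the replicate number as a block, 4 genes were higher and 3 lower, 4242 and 3667 of all genes and 32 and 12 of the related genes, and it changed no call among the 9 genes.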
